A study of Homo sapiens with 32 samples.

Results

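MYC, MYCN and MYCL, their partner MAX, the MAX-binding repressors MXD1, MXD3, MXD4 and MNT, and the transcription factor MYB were described across 32 human acute myeloid leukaemia (AML) cell lines. These 9 genes were chosen by name. A gene was measured through Affymetrix probe sets annotated with its symbol alone, and where it had several, the probe set with the highest mean over the 32 lines was used. By this rule 8 of the 9 genes were measured, with 26 probe sets in all, among 19775 genes of the array. The 3 probe sets of MXD4 also carry the symbol of a microRNA gene, MIR4800, so MXD4 has no value here. All 8 measured genes were among the 15455 genes tested, which had to exceed 6.73 on the log2 scale, the overall median of the arrays, in 3 or more units.

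Each line was measured once, untreated, from total RNA. A cytokine was named in the medium of 4 lines: IL-3 (5 ng/ml, in RPMI 1640) for F-36P, and GM-CSF or SCF in alpha-MEM for the 3 lines OCI-AML2, OCI-AML3 and OCI-AML5. No cytokine was named for 25 lines, of which 21 were kept in RPMI 1640 and the others in IMDM. For MV4-11, MOLM-13 and MOLM-16 the labels give no medium. The submitters also recorded how each line responded to inhibitors of the PIM kinases; drug response was not used here. HL-60 and PLB-985, known to come from the same donor, and KG-1 and its subline KG-1A were averaged in the fits and in the correlations between genes, which left 30 units. Levels are log2(signal + 16), so that a difference of 1 is a 2-fold difference in signal + 16. A probe set's brightness depends on its own sequences, so levels are compared between lines and not between genes.

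The MYC proteins bind DNA only as dimers with MAX, at the E-box CACGTG, and raise transcription of genes for growth, ribosome production and metabolism. The MXD proteins and MNT bind MAX as well, sit on the same E-boxes and recruit SIN3 and histone deacetylases, so MAX is shared between activators and repressors. MYC is the family member used most widely by proliferating blood cells, while MYCN and MYCL are more restricted and MXD1 is known to rise as myeloid cells mature. MYB belongs to another protein family: it keeps blood progenitors immature and proliferating, and MYC is among its known target genes.

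Arrays differed in quality. The GAPDH 3'/5' ratio, which rises when RNA is degraded, lay between 0.871 and 1.24 on 24 arrays and between 2.42 and 7.08 on 8. NOMO-1 and GF-D8 had median signals of 198.4 and 243.3, against 68.2 to 115.4 on the other 30 arrays. Of 7 myeloid identity markers 6 were measured, each above the median of all probe sets in at least 1 line, and 5 also by their median over lines. The summed signal of those 6 markers ranged from 4848 to 57518, of 5 B cell markers from 420.7 to 3194, of 8 T and NK cell markers from 204.9 to 18346 and of 9 stromal and epithelial markers from 705.0 to 12012; their part in the results was not tested.

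MYC, the activator at the centre of the network, was above the median of all probe sets in all 32 lines. Its level had a median of 13.13 and ran from 10.75 in NOMO-1 to 14.50 in HL-60, a 13.4-fold range. Its standard deviation over units, 0.85, was larger than that of 55.5% of the genes tested. HL-60, a line known to carry amplified copies of MYC, was highest at 14.50 and its derivative PLB-985 was next at 14.31. ME-1 at 14.29, EOL-1 at 13.99, OCI-AML5 at 13.92 and SKM-1 at 13.90 followed. The gap between PLB-985 and ME-1 was 0.02, smaller than the 0.19 between HL-60 and PLB-985 and the 0.40 between KG-1 and KG-1A, so these neighbours in the order are not told apart. After quantile normalization ME-1 stood above both, with HL-60 in place 2 and PLB-985 in place 3 of 32. At the low end NOMO-1 at 10.75 lay 0.78 below GDM-1 at 11.53, and THP-1, ML-2 and HNT-34 came next with 11.69, 11.95 and 11.99. MYC had a median of 12.20 on the 8 arrays of high GAPDH ratio, against 13.24 on the other 24. NOMO-1, GDM-1, THP-1 and ML-2, the lines of lowest MYC level, are all among those 8, and so is HL-60. Line and RNA quality cannot be told apart on these arrays, since each line has 1 array.

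**Figure D1:**
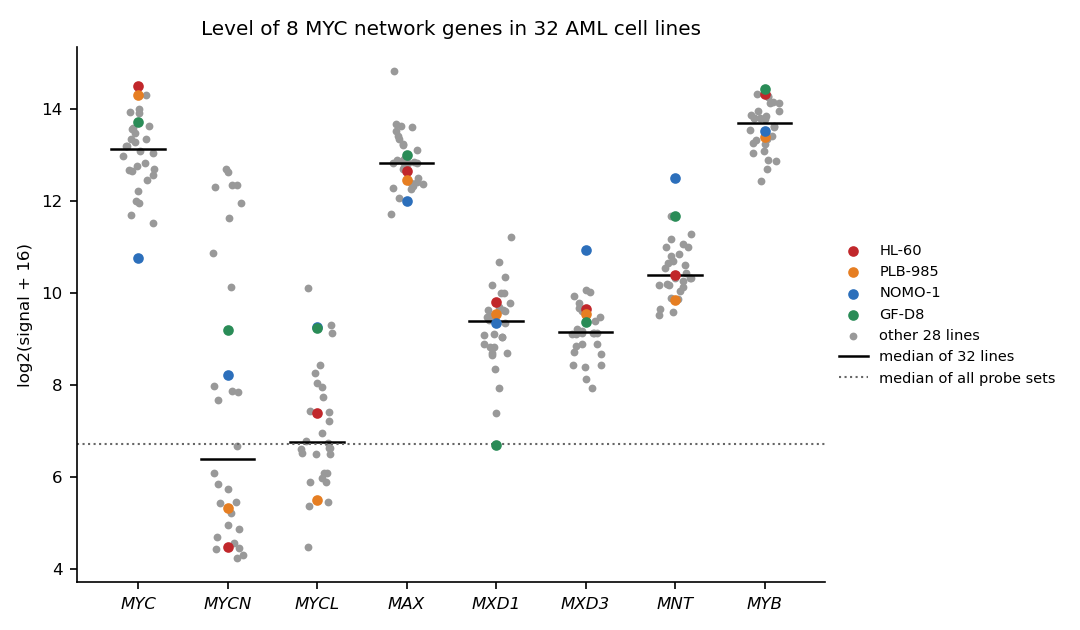
Level of each measured gene, as log2(signal + 16), in 32 lines: 1 point per line, with HL-60, PLB-985, NOMO-1 and GF-D8 coloured, black bars at the median over lines and the dotted line at the median of all probe sets. MYCN spreads over the widest range, from 4.24 to 12.70, while MYB stays between 12.43 and 14.44; heights are not comparable between genes.

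MYCN, the relative of MYC best known from nerve cell tumours, varied more than any other member. It was near the floor of the array in many lines and bright in others: SHI-1 at 4.24 was lowest, the median was 6.38, and ME-1 at 12.70 was highest; the size of that range at its low end is set by the 16 added to each signal. Its standard deviation over units, 3.02, was larger than that of 99.7% of the genes tested. The upper group held ME-1 at 12.70, FKH-1 at 12.62, HNT-34 at 12.35, MO7E at 12.34, GDM-1 at 12.31, KG-1 at 11.95, KMOE-2 at 11.63, KG-1A at 10.86 and KASUMI-1 at 10.13. GF-D8 at 9.19, NOMO-1 at 8.21, THP-1 at 7.97, HEL at 7.87, OCI-M2 at 7.85 and SH-2 at 7.66 were intermediate, and the other 17 lines stood below the median of all probe sets. HL-60 at 4.49 and PLB-985 at 5.33, the lines with the highest MYC level, were in that lower group, while ME-1 was high in both genes. Over the 30 units the levels of MYCN and MYC had a Pearson correlation of −0.03 and a Spearman correlation of 0.03. Lines bright for MYCN included both ME-1, among the highest for MYC, and GDM-1, among the lowest. A second MYCN probe set placed ME-1 highest again, at 8.87, and had r = 0.73 and a Spearman correlation of 0.53 with the first. It was above the median of all probe sets in 3 lines, against 15 for the first. The grouping of lines by MYCN level thus rests on the first probe set. The other 8 MYCN probe sets also stood above that median in at most 3 lines and had r between −0.19 and 0.56 with the first. Each of these 8 was highest in NOMO-1 or GF-D8, the arrays of high median.

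**Figure D2:**
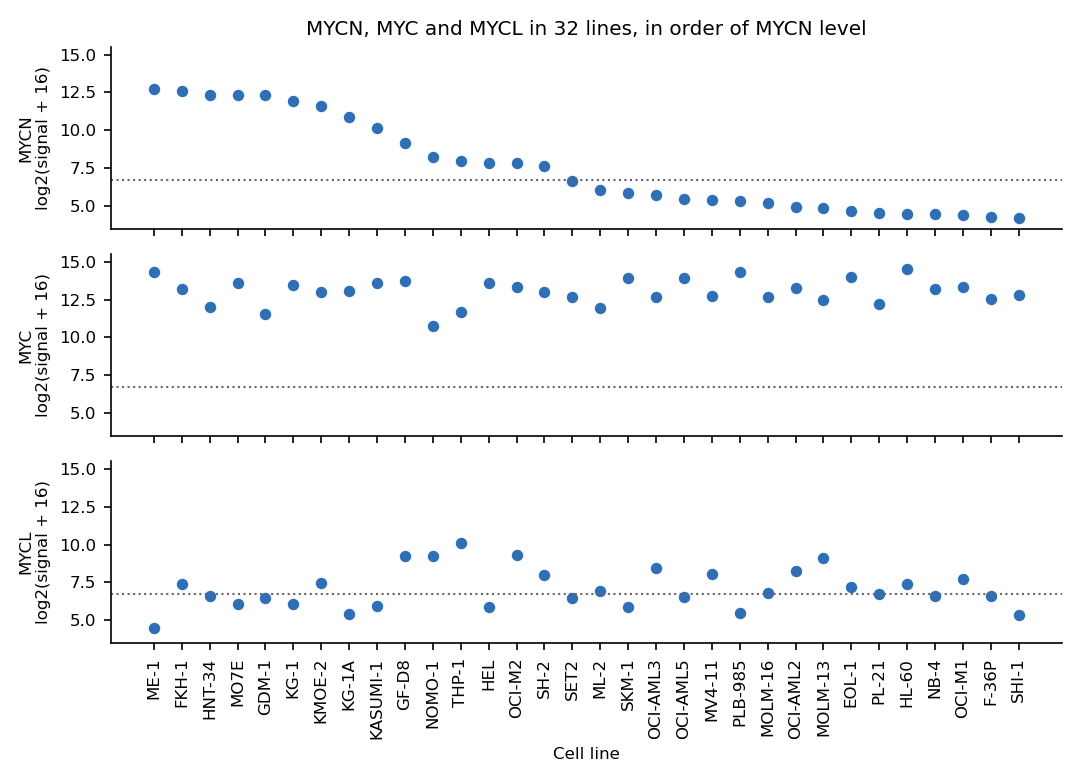
Levels of MYCN, MYC and MYCL, as log2(signal + 16), in the same 32 lines, ordered from the highest to the lowest MYCN level; each point is 1 array and the dotted line marks the median of all probe sets. MYC stays high along the whole order while MYCN drops to the floor and MYCL rises above 9 in THP-1, OCI-M2, NOMO-1, GF-D8 and MOLM-13.

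MYCL, the family member first found in lung cancer, ran from 4.49 in ME-1 through a median of 6.76 to 10.11 in THP-1. After THP-1 the levels were 9.31 in OCI-M2, 9.27 in NOMO-1, 9.23 in GF-D8 and 9.13 in MOLM-13, and OCI-AML3 was next at 8.43. MYCL was above the median of all probe sets in 17 lines. ME-1, the line with the highest MYCN level, had the lowest MYCL level. MYCL differed by −1.91 between PLB-985 and HL-60, a difference larger in size than that of 93.9% of the genes tested in this pair, although the lines share an origin. The GAPDH ratio was 7.08 for HL-60 and 0.93 for PLB-985, so line and RNA quality cannot be told apart in this pair. A second, dimmer MYCL probe set followed the first with r = 0.45.

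MAX, the obligate partner of both activators and repressors, was above the median of all probe sets in all 32 lines and varied less than most genes: its standard deviation, 0.62, was larger than that of only 26.7% of the genes tested. Its level ran from 11.72 in KMOE-2 through a median of 12.82 to 14.81 in MO7E. MO7E stood 1.14 above the next line, GDM-1 at 13.67, whereas HNT-34 at 13.62, NB-4 at 13.60 and KG-1 at 13.53 lay within 0.14 of GDM-1. MO7E was also the highest line on 3 of the 4 other MAX probe sets, at 11.91, 13.72 and 12.95. The remaining probe set was highest in GF-D8.

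MXD1, a repressor known to rise during myeloid maturation, was highest in OCI-M1 at 11.22, followed by SH-2 at 10.67, OCI-M2 at 10.36 and MOLM-13 at 10.18. Its median was 9.38, and THP-1 at 7.39 and GF-D8 at 6.70 were lowest. THP-1, GF-D8 and also MOLM-13 are arrays of high GAPDH ratio, and GF-D8 had the highest array median. A second MXD1 probe set also put OCI-M1 highest, at 10.98, with r = 0.54 to the first. The dimmest, above the median of all probe sets in 3 lines, had r = 0.03 and was highest in GF-D8, at 8.67.

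MXD3, a family member tied to proliferation, ran from 7.94 in SET2 through a median of 9.14 to 10.94 in NOMO-1, with KG-1A at 10.07, PL-21 at 10.02 and GDM-1 at 9.93 next. The MXD3 level was 0.94 higher in KG-1A than in KG-1, a larger difference than that of 77.2% of the genes tested in this pair. MNT, the most widely expressed of the MAX-binding repressors, ran from 9.52 in KG-1A through a median of 10.38 to 12.49 in NOMO-1, with GDM-1 and GF-D8 at 11.67 next. NOMO-1, lowest for MYC, was thus highest for both MXD3 and MNT. MNT levels followed the median of the array with r = 0.69 over the 30 units, and NOMO-1 and GF-D8 are the 2 arrays of high median. A second, dimmer MNT probe set was highest in GF-D8 at 8.16. It had r = 0.56 and a Spearman correlation of 0.25 with the first.

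MYB had the narrowest range of the 8 genes. It ran from 12.43 in HNT-34 through a median of 13.70 to 14.44 in GF-D8, a 4.03-fold range, and only 11.0% of the genes tested had a smaller standard deviation. HEL at 12.68, KG-1A at 12.87 and KG-1 at 12.88 followed HNT-34 at the low end, and GF-D8, MOLM-13 at 14.32, HL-60 at 14.32 and ME-1 at 14.27 lay within 0.17 at the high end. GF-D8, MOLM-13 and HL-60 are arrays of high GAPDH ratio. MYB had a median of 13.90 on the 8 arrays of high ratio and 13.58 on the other 24, and the part of RNA quality was not tested. PLB-985, an array of low ratio, was 0.93 lower than HL-60, and KG-1A differed from KG-1 by −0.01. A second, dimmer MYB probe set was highest in OCI-AML5 at 12.12 and had r = 0.40 with the first.

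The genes around MYC on band 8q24 were compared between the lines of the HL-60 origin and the other 30. TRIB1, a pseudokinase that lowers C/EBPα in myeloid cells, was at 14.20 in HL-60 and 12.90 in PLB-985, against 6.17 to 11.91 in the other lines, with HEL highest among them. The pair did not overlap with the others. Relative to the median of the other 30 lines, TRIB1 was 22.1-fold in HL-60 and 8.96-fold in PLB-985, while MYC was 2.72-fold and 2.39-fold. HL-60 and PLB-985 took places 1 and 2 for TRIB1 after quantile normalization and after median centring as well. Among the 14 tested genes of the 8q24 list other than MYC, TRIB1 alone had HL-60 and PLB-985 as its top lines, 7.14% of the list, against 41 of all 15455 tested genes, 0.265%.

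The other 8q24 genes did not share that order. Between TRIB1 and MYC, LRATD2 had HL-60 in place 9 and PLB-985 in place 28, and POU5F1B had them in places 13 and 26. PVT1, the long noncoding RNA gene next to MYC that is often amplified with it, was at 5.97 in HL-60 and 5.64 in PLB-985, against a median of 6.06 in the other lines, and its probe set was above the median of all probe sets in 4 lines only. On the MYC side away from TRIB1, CCDC26 was at 9.93 in HL-60 and 6.87 in PLB-985, against a median of 8.49. CYRIB was lower in HL-60 (10.02) than in every other line, with PLB-985 in place 20. On the TRIB1 side, NSMCE2 at 8.27 and MTSS1 at 5.24 had HL-60 in place 31, and PLB-985 in places 24 and 26. NDUFB9, SQLE, WASHC5 and TATDN1 had HL-60 in places 2, 28, 30 and 28, and PLB-985 in places 17, 13, 9 and 15. GSDMC, ASAP1 and ADCY8, the last near the floor of the array, had HL-60 in places 30, 12 and 30. PLB-985 was in places 17, 25 and 26 for them. The GAPDH ratio was 7.08 for HL-60, the highest of all arrays, and 0.93 for PLB-985. Its part in these places was not tested. Copy number was not measured in this series.

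**Figure D3:**
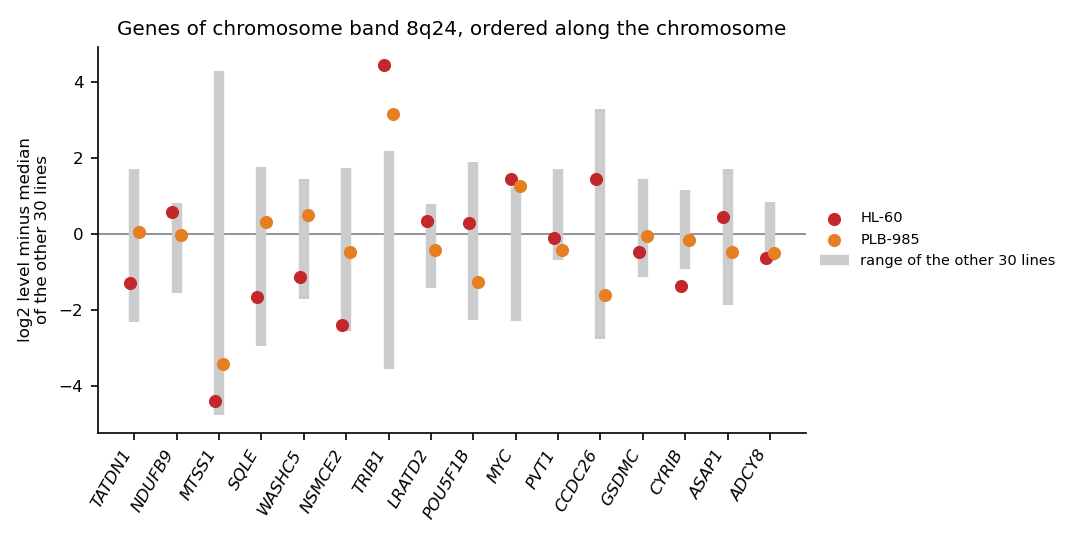
Level of 16 genes of band 8q24 in HL-60 (red) and PLB-985 (orange) minus the median of the other 30 lines, in log2 units, with genes in chromosomal order and grey bars for the range of the other 30 lines. TRIB1, at 4.47 and 3.16, and MYC, at 1.45 and 1.26, are the genes for which both lines lie above all others.

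How the members varied together was read from the 28 pairs of the 8 genes over 30 units, as a description. MYC and MNT had the most negative correlation, with r = −0.54 and a Spearman correlation of −0.47. The value stayed between −0.63 and −0.48 under quantile normalization, median centring, another pseudocount, and without the arrays of high median or of high GAPDH ratio. All these settings kept the brightest MNT probe set. MYC and MXD3 had r = −0.47, which ranged from −0.48 to −0.09 over the same settings. MYC and MYCL had r = −0.40, and the other settings gave −0.39 to −0.35. MXD3 and MNT had r = 0.40, which lay between −0.04 and 0.41. MYCN had r = −0.36 with MYB, 0.35 with MAX and −0.33 with MXD1. MYC and MAX had r = 0.03, and −0.12 to 0.32 in the other settings. MYC and MYB had r = 0.17, and 0.08 to 0.45 in the other settings. The pairs share their arrays, so the scale of an array enters both genes of a pair.

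**Figure D4:**
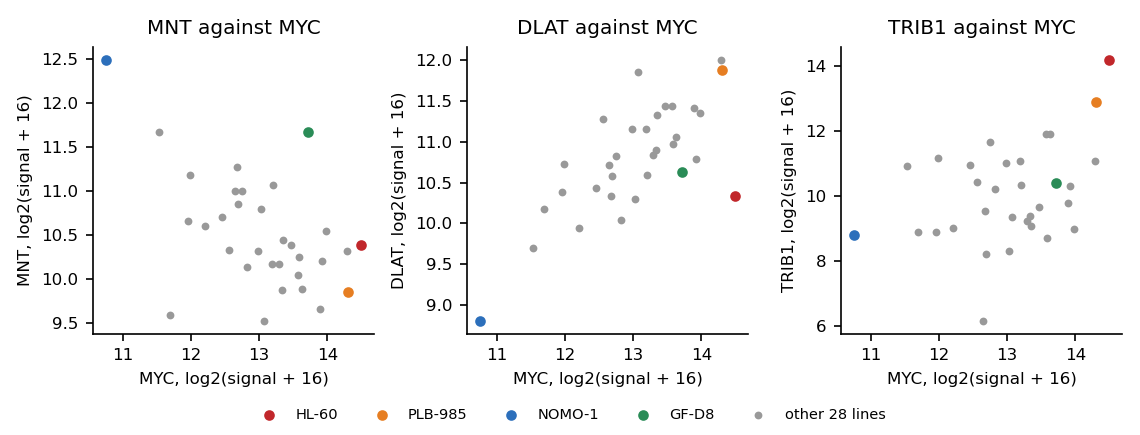
Levels of MNT, DLAT and TRIB1 against MYC, as log2(signal + 16), 1 point per line, with HL-60, PLB-985, NOMO-1 and GF-D8 coloured. NOMO-1 has the lowest MYC and DLAT and the highest MNT level, GF-D8 lies above the other lines of like MYC level for MNT, and HL-60 and PLB-985 stand apart for TRIB1.

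In a linear model across all genes, the slope of each gene on the MYC level gave the change in its log2 level per log2 unit of MYC. None of the other 7 measured members passed, where 0.0518% of all 15454 genes were called higher and 0.0582% lower with MYC. MNT had a slope of −0.41 ± 0.12 (SE, 30 units; limma adjusted p = 0.136), MXD3 one of −0.34 ± 0.13 (limma adjusted p = 0.206) and MYCL one of −0.63 ± 0.26 (limma adjusted p = 0.251). MNT passed with each array centred on its median, where its slope was smaller in size at −0.24 (limma adjusted p = 0.0487). It also passed without GF-D8, with a slope of −0.47 (limma adjusted p = 0.0121). In these settings 2987 and 1510 of the 15454 genes passed.

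Across the genome, 17 genes passed with MYC, 8 that rose and 9 that fell. DLAT, the acetyltransferase subunit of the pyruvate dehydrogenase complex, had the smallest p: its level was 8.81 in NOMO-1, had a median of 10.80 over units and reached 12.00 in ME-1, with a slope of 0.59 ± 0.10 (limma adjusted p = 0.00838). AATF and DDX10, both factors of ribosome production, rose with slopes of 0.54 ± 0.10 and 0.48 ± 0.10 (limma adjusted p = 0.0358 and 0.0466). NPM3, a nucleophosmin relative of the nucleolus, GEMIN5, which helps to assemble splicing particles, CIAO1, part of cytosolic iron-sulphur protein assembly, the poly(A) polymerase TENT5C and NKAPD1 rose as well, with slopes from 0.46 to 1.64. The genes that fell were ARMCX6 with −1.55 ± 0.33, the Rab regulator DENND2D with −1.43 ± 0.28, the cholesterol esterifying enzyme LCAT with −1.15 ± 0.21, and FLYWCH1, SLC25A34, ATP9A, DEF8, TNFRSF14-AS1 and the long noncoding RNA gene TUG1, with slopes from −0.75 to −0.40. NOMO-1 was the lowest unit for 6 of the 8 genes that rose and the highest for all 9 that fell.

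The calls with MYC changed with single units: leaving out any 1 of 22 of the 30 moved the count by over 1.5 times. Without NOMO-1 no gene passed, without GF-D8 1510 did, and without both 0. One gene passed without GDM-1, ML-2, OCI-AML3 or SKM-1, 4 without HEL or PL-21, and 31 without the HL-60 and PLB-985 unit. The count was 7 without KG-1 and KG-1A, 8 without KASUMI-1, MV4-11, OCI-M2, SET2 or SHI-1, 9 without EOL-1, KMOE-2, MOLM-13 or MOLM-16, and 11 without OCI-M1, SH-2 or THP-1. Without the arrays of high GAPDH ratio 0 genes passed, and with each array centred on its own median 2987 did, 2595 higher and 392 lower.

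The lists of genes tied to the network were read from the same fit, and none of their genes passed. Of 24 tested genes known to be induced by MYC, 21 had a positive slope and the median was 0.28, beside −0.07 for all genes tested. The median of the list was 0.22 after quantile normalization and 0.51 after median centring, beside −0.02 and 0.11 for all genes. The members of smallest p were RRP9, a component of the small nucleolar ribonucleoproteins, with 0.62 ± 0.15 (limma adjusted p = 0.0993), the rRNA methyltransferase FBL with 0.39 ± 0.11, ODC1, which starts polyamine synthesis, with 0.44 ± 0.13, and the helicase DDX21 with 0.38 ± 0.11. All 4 were lowest in NOMO-1. The MYC-induced list was not particular to MYC after median centring. Its median slope there was 0.55 on MYB and 0.34 on MXD1, beside 0.18 and 0.14 for all genes. Without further scaling these medians of the list were −0.07 and 0.03. Of 13 genes known to be repressed by MYC, 6 had a positive slope on MYC, 9 after quantile normalization and 10 after median centring. Among all 15454 genes 6139 had one, 7291 after quantile normalization and 9945 after median centring. CDKN1A, an inhibitor of cyclin-dependent kinases, had −0.65 ± 0.30 and CCND1 0.72 ± 0.28. Of 13 monocyte and macrophage markers, 2 had a positive slope and the median was −0.42, or −0.20 after median centring, with ITGAM at −0.94 ± 0.37. Of 21 other network genes, such as HUWE1, the ubiquitin ligase for MYC, at −0.26 ± 0.08 and HDAC2 at 0.17 ± 0.08, 10 had a positive slope, and 16 did after median centring. MYBL1, a relative of MYB, had a slope of −0.96 ± 0.25 on MYC (limma adjusted p = 0.0993).

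The promoters of the genes that moved with MYC were searched for the E-box CACGTG, which reads the same on both strands, in RefSeq windows of GRCh38.p14 from 250 bases before to 50 after each gene's start. Of all tested genes with such a window, 1175 of 12279 held the letters, 9.57%. Of the genes that rose, 1 of 8 did (AATF), and of those that fell with a window, 2 of 7 did (ARMCX6 and TUG1). Of the 7 members with a window, only that of MNT held it. In the list of genes known to be induced by MYC, chosen for being MYC targets, 11 of 20 did, 55.0%. The windows of MNT, the member most negatively related to MYC, of AATF, which rose, and of TUG1, which fell, are shown 5′ to 3′ with the E-box in capitals; it begins 193, 157 and 77 bases before the start of the gene. They lie at chr17:2401011-2401310 on the minus strand for MNT, chr17:36948704-36949003 on the plus strand for AATF and chr22:30969015-30969314 on the plus strand for TUG1.
MNT promoter: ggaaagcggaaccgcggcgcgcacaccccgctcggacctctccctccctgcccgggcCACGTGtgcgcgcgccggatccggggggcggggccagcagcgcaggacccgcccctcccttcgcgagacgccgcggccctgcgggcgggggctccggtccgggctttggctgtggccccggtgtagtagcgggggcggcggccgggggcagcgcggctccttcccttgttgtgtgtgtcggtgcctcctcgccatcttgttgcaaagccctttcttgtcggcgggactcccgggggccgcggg
AATF promoter: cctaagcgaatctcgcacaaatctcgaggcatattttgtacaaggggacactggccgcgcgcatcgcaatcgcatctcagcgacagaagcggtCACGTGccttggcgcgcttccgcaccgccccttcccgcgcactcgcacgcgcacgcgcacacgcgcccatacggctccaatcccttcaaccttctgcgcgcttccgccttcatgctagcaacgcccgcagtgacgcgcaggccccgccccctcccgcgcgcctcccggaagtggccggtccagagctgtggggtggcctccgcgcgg
TUG1 promoter: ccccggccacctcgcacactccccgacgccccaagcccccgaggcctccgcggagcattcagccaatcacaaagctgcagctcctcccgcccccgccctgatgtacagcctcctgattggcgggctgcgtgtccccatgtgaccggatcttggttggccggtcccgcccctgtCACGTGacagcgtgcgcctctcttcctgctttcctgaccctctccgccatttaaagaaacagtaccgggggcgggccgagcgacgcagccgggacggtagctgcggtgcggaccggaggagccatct
The E-box stands upstream of the start in all 3 windows, and the genes behind them include both directions of slope on MYC. A match is a description of letters and not a measured binding site.

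MYB was set against all genes in the same way, and 4 genes passed: 3 that rose (0.0194% of those tested) and 1 that fell (0.00647%). No other member passed; MYCN had the largest slope among them, −2.15 ± 1.00 (limma adjusted p = 0.406). INSR, the insulin receptor, had the smallest p. Its level was 4.48 in HEL and 4.60 in HNT-34, the 2 lines of lowest MYB level, 11.05 at the median of units and 12.40 in ML-2, and its slope was 3.15 ± 0.48 log2 units per log2 unit of MYB (limma adjusted p = 0.00354). ATP8B3, a P4-type ATPase, ran from 5.46 in HEL to 10.96 in OCI-AML5 with a slope of 2.10 ± 0.34 (limma adjusted p = 0.00603). DENND10 rose with 1.67 ± 0.31 and was also lowest in HEL. DNMT3B, a de novo DNA methyltransferase, fell with −2.28 ± 0.44 (limma adjusted p = 0.0464); it was highest at 13.42 in HNT-34, the line of lowest MYB level, and lowest at 7.77 in PL-21.

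None of the genes in the lists passed with MYB. Of 13 neutrophil granule genes 11 had a positive slope, with a median of 2.06 beside 0.03 for all genes; the list's median was 2.23 after quantile normalization and 1.07 after median centring. AZU1, which encodes the granule protein azurocidin, had a slope of 4.55 ± 1.05 (limma adjusted p = 0.0933), with 14.90 in SHI-1 and 4.54 in HEL. The receptor CSF3R had 2.14 ± 0.58, the granulocyte regulator GFI1 2.06 ± 0.58, CTSG 2.84 ± 0.97 and MPO 3.10 ± 1.29. None of the 12 erythroid markers had a positive slope, and their median was −0.74; TAL1, a regulator of erythroid and progenitor genes, had −2.65 ± 0.91. Among genes known as MYB partners or targets, FLT3 had 2.41 ± 0.79, CCNA1 2.45 ± 0.78 and CD34 −2.27 ± 0.82, and 10 of 19 had a positive slope. MXI1, another MAX-binding repressor, had 0.96 ± 0.27, and CDK9, the elongation kinase, −0.74 ± 0.19. Of 23 cell cycle genes, 4 had a positive slope, but 22 did with each array centred on its median. Among all 15454 genes 8234 had one, and 10007 after that centring.

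The calls with MYB also changed with single units. They fell to 1 without HEL and to 2 without F-36P, FKH-1, GDM-1, the HL-60 and PLB-985 unit, ML-2, MOLM-13, MV4-11, OCI-AML5, PL-21 or SH-2. They came to 8 without GF-D8, 13 without MOLM-16, 14 without KG-1 and KG-1A, 15 without NOMO-1, 24 without SKM-1, 47 without ME-1 and 48 without OCI-AML3. With median centring 36 genes passed as higher and 4 as lower, and with the mean of both MYB probe sets 0 genes passed.

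No gene passed with MXD1 in limma (0.0% of 15454 tested), while 2474 had an unadjusted p under 0.05. The smallest adjusted p of limma was 0.125, for the proton pump gene ATP12A, which ran from 4.86 in OCI-M1, the highest MXD1 unit, to 8.96 in GF-D8, the lowest. CDKN1B, which encodes the cell cycle inhibitor p27, had a slope of 0.61 ± 0.16 and LMO2, a partner of TAL1, one of 0.59 ± 0.16 (limma adjusted p = 0.194 for each). Without THP-1 6 genes passed and without SH-2 1 did. Another scaling changed the count: 1203 genes passed after quantile normalization, 714 higher and 489 lower, and 4096 after median centring, 3711 higher and 385 lower.

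MYCN was also set against all genes, a fit added after seeing that it varied most. Without further scaling and with all units it gave more calls than the slopes on MYC, MYB and MXD1: 190 genes passed, of which 132 rose (0.854% of those tested) and 58 fell (0.375%). No other member passed. The smallest p belonged to ARID5B, a DNA-binding protein with an ARID domain: it was at 11.65 in HNT-34, 11.08 in MO7E, 10.82 in GDM-1 and 10.75 in FKH-1, all bright for MYCN, and at 4.75 in PLB-985 and 5.00 in F-36P, both dim (limma adjusted p = 7.21e-05). Its Pearson correlation with MYCN, 0.83, was the highest of all genes tested, with a Spearman correlation of 0.72.

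The 10 steepest of the genes that rose with MYCN were SHANK3, HOPX, SMIM24, SPINK2, PTPRCAP, ERG, ANGPT1, GCSAML, TMEM163 and GUCY1A1, with slopes from 0.75 to 0.60 log2 units per log2 unit of MYCN. SPINK2, a protease inhibitor known as a marker of immature blood cells, was at 14.19 in HNT-34, 13.40 in FKH-1, 13.27 in GDM-1 and 11.83 in ME-1 and had a median of 5.97 over units, with a slope of 0.71 ± 0.13 (limma adjusted p = 0.00157). The order was not strict: KG-1 was at 4.63 and its subline KG-1A at 11.82, although MYCN was bright in both. HOPX, a homeodomain cofactor of stem cells, had a slope of 0.72 ± 0.11 (limma adjusted p = 0.000656), with KG-1A at 13.84 and MO7E at 13.63 highest. ERG, an ETS factor of blood stem cells, had 0.67 ± 0.12 (limma adjusted p = 0.00227); it was at 10.91 or above in 8 of the 9 lines brightest for MYCN, all but KMOE-2 at 8.06, and also in MOLM-16 and SET2. SHANK3, a scaffold protein of synapses, had 0.75 ± 0.11 (limma adjusted p = 0.000434) with GDM-1 highest at 13.21.

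From the lists, CD34, the surface marker of blood progenitors, rose with 0.58 ± 0.11 (limma adjusted p = 0.00356), 1 of 6 myeloid identity markers tested and 1 of 19 genes of the MYB list. CD34 was at 13.44 in GDM-1, 12.80 in KG-1, 12.49 in ME-1, 12.16 in KG-1A and 11.83 in HNT-34, and at 4.73 in MV4-11. SET2, at 11.27 for CD34, and F-36P, at 10.55, are dim for MYCN, while MO7E, at 8.48, and KMOE-2, at 6.95, are bright for MYCN. TAL1 rose with 0.54 ± 0.14 (limma adjusted p = 0.0489), 1 of 12 erythroid markers. The receptor kinase KIT missed the threshold with 0.53 ± 0.15 (limma adjusted p = 0.0599). Of 24 genes known to be induced by MYC, 0 passed with MYCN and 6 had a positive slope, with a median of −0.02 beside 0.01 for all genes.

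The 10 steepest of the genes that fell with MYCN were S100A6, CSTA, S100A10, CBR1, LYZ, LINC00926, CACNA2D3, P2RY2, HTATIP2 and FZD3, with slopes from −0.66 to −0.50. S100A6, a calcium-binding protein, was at 4.36 in KMOE-2, 4.83 in HNT-34 and 5.38 in GDM-1, and at 14.55 in SET2 and 14.52 in MOLM-16, with a slope of −0.66 ± 0.12 (limma adjusted p = 0.00265). LYZ, lysozyme of monocytes and granulocytes, was at 4.25 in HNT-34, 4.56 in KG-1A and 4.73 in GF-D8 and had a median of 12.89, with a slope of −0.55 ± 0.14 (limma adjusted p = 0.0415); it was the only 1 of 13 monocyte and macrophage markers to pass. FKH-1, bright for MYCN, kept a LYZ level of 13.65. CSTA, the protease inhibitor cystatin A, had a slope of −0.61 ± 0.16 (limma adjusted p = 0.0489). The carbonyl reductase CBR1 fell with −0.56 ± 0.10 and the Wnt receptor FZD3 with −0.50 ± 0.09 (limma adjusted p = 0.00115 for each).

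**Figure D5:**
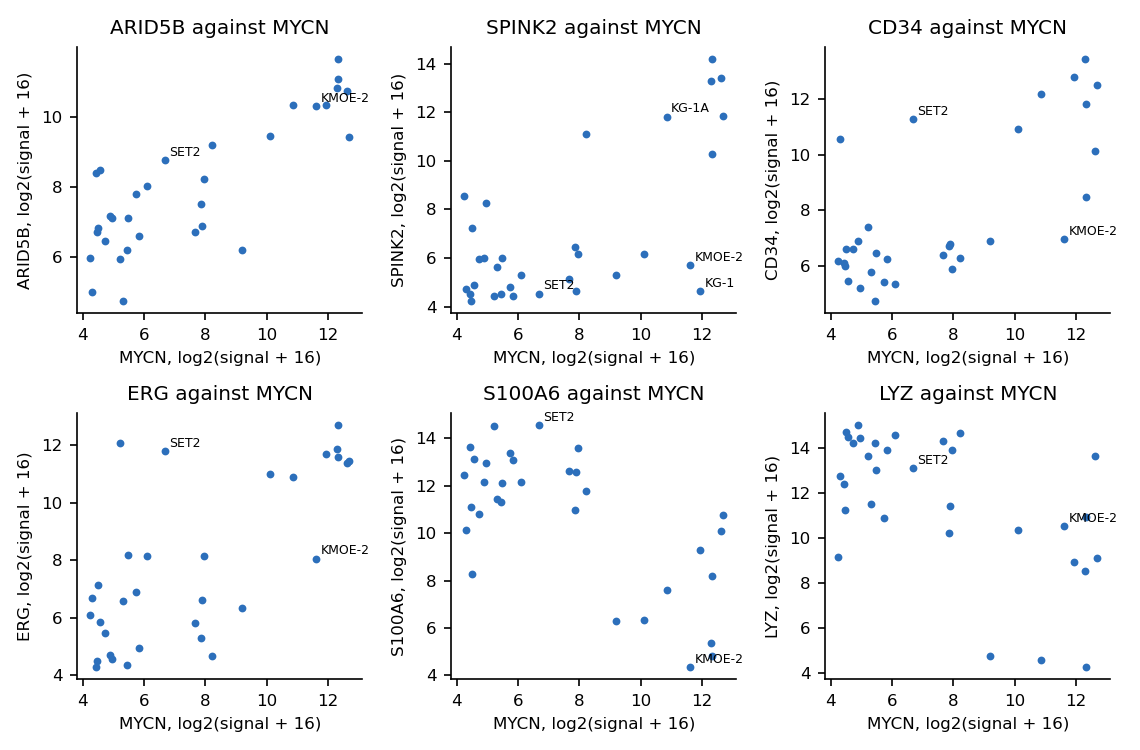
Levels of ARID5B, SPINK2, CD34, ERG, S100A6 and LYZ against MYCN in 32 lines, as log2(signal + 16), 1 point per line, with a few lines named. ARID5B is brightest in lines bright for MYCN, SPINK2, CD34 and ERG are bright in most of them but not in KMOE-2, and S100A6 is lowest in KMOE-2.

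The count with MYCN was 134 to 254 with any unit left out. It was 90 without the arrays of high GAPDH ratio, where LYZ, CSTA, S100A10, LINC00926, P2RY2, GCSAML and TAL1 no longer passed, and 95 rose and 71 fell after median centring. LYZ kept a slope of −0.55 after quantile normalization (limma adjusted p = 0.0532) and had −0.56 after median centring (limma adjusted p = 0.0664), where it missed the threshold. CACNA2D3 and TAL1 also missed it after median centring, with slopes of −0.54 and 0.55, and CSTA and TAL1 without a filter on low levels or without a trend. Leaving out each of the 30 units in turn, TAL1 lost its call 20 times (limma adjusted p = 0.0156 to 0.102), CSTA 18 times, LYZ 13 times, CACNA2D3 8 times and LINC00926 5 times, and each of the 5 lost it without GDM-1 and without HNT-34. The other 18 genes named with MYCN from the slopes kept theirs in these repeats. With only the lines kept in RPMI 1640 with no cytokine named, S100A6 (limma adjusted p = 0.0666), PTPRCAP, S100A10, FZD3, CSTA, LYZ and CACNA2D3 lost their calls. With the mean of all 10 MYCN probe sets in place of the brightest the count was 5103. Most of these probe sets were highest in NOMO-1 or GF-D8, the arrays of high median. With that mean CD34 (limma adjusted p = 0.104), ERG (limma adjusted p = 0.131), ANGPT1, GCSAML, TMEM163, P2RY2, HTATIP2, CSTA, LINC00926 and TAL1 lost their calls.

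For each member the genes of most similar pattern were named by Pearson correlation over the 30 units, among 15454 tested. For MYC they were DLAT (0.79), AATF (0.72) and NKAPD1 (0.72), with TNFRSF14-AS1 (−0.78) and SLC25A34 (−0.73) at the other end. For MYCN they were ARID5B, TNFSF4 (0.79) and SCARF1 (0.79), with HES6 (−0.78) and GCHFR (−0.75) opposite. MYCL was most like MEIS3P1 (0.72), ZFP2 (0.71) and CHPF (0.71), and least like ANKRD49 (−0.68) and TLK1 (−0.67). MAX was most like IL9R (0.75), ZNF70 (0.67) and FNTB (0.61), and least like CAMK4 (−0.65) and UNC93B1 (−0.64); IL9R and ZNF70 were, like MAX, highest in MO7E. MXD1 was most like RREB1 (0.70), GATB (0.68) and TMEM39A (0.67), and least like ATP12A (−0.73) and ALKBH8 (−0.66).

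NOMO-1 was the lowest or highest unit for all 5 genes named for MYC and GF-D8 for all 5 named for MXD1. MXD3 was most like ZXDC (0.84), CLK4 (0.79) and TMEM259 (0.76), and least like PSMG1 (−0.78) and MINPP1 (−0.78). MNT was most like SGSM2 (0.84), SPSB3 (0.82) and CERS5 (0.79), all highest in NOMO-1, and least like MAD2L1 (−0.80) and SPCS1 (−0.78), both lowest in GF-D8. MYB was most like INSR (0.76), ATP8B3 (0.75) and DENND10 (0.71), and least like ZNF280B (−0.72) and SEC14L1 (−0.71).

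For MNT and MAX a similar gene is also the chromosomal neighbour of the member. SGSM2, rank 1 for MNT, is the tested protein-coding gene next to it on one side in the RefSeq annotation, and FNTB, rank 3 for MAX, is next to MAX and overlaps it, so their signals may not be fully separate. The other tested neighbours had r between −0.35 and 0.47. On the other side of MAX, FUT8 had 0.47 (rank 122), and the next tested gene on the other side of MNT, PAFAH1B1, had −0.15 with a Spearman correlation of 0.42. AHI1 beside MYB had 0.40 (rank 630) and HBS1L −0.23, while MYCN had −0.0046 with DDX1, the neighbour known to be amplified with it in nerve cell tumours, and −0.20 with CYRIA.

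Lines were also grouped by the growth protocol. The 4 lines grown with a cytokine were set against 23 units with none named, and 0 genes passed in limma (0.0% of 15455), while 878 had an unadjusted p under 0.05. None of the 8 measured members passed. MYCN was at 4.30 in F-36P, 4.95 in OCI-AML2, 5.75 in OCI-AML3 and 5.46 in OCI-AML5, all dim. In the units with no cytokine named it ran from 4.24 to 12.70 with a median of 7.87. The ranges overlap, and the difference was −3.15 ± 1.47 (limma adjusted p = 0.864). MAX was at 12.28, 12.73, 12.49 and 12.25 in the same lines, against a median of 12.89 and a range from 11.72 to 14.81 (difference −0.51 ± 0.34, limma adjusted p = 0.915).

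MYC averaged 13.11 ± 0.63 (SD, n = 4) with a cytokine and 13.00 ± 0.93 (SD, n = 23) with none named, and MYB 13.68 ± 0.61 and 13.58 ± 0.49. Both differences lay within the spread between lines. Differences of the other members lay between −0.34 for MXD3 and 0.44 for MYCL. MXI1, another MAX-binding repressor, had the smallest p of the other network genes, with a difference of 1.17 ± 0.43 (limma adjusted p = 0.864). Medium, cytokine and line cannot be told apart in this comparison, since each line grew in 1 condition. Without OCI-AML5 1 gene passed, and without the arrays of high GAPDH ratio 4 did.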

How the data were processed

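Total RNA of 32 lines was hybridised to 1 Affymetrix array each. The authors deposited 1 intensity value per probe set and array, linear and not log-transformed. Affymetrix Expression Console made them, per the submitters' processing notes, and its version and summarization method are not given in the sources used here. The mean of each array after trimming 2% at each end lay between 500.05 and 500.07. From these, log2(signal + 16) was taken without further scaling. Of 54675 probe sets, 41091 carried a single symbol in the platform annotation, 1801 several and 62 were controls.

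Slopes and the cytokine comparison were fitted with limma 3.58.1 (lmFit, eBayes with trend) in R 4.3.3 over all tested genes, two-sided, with Benjamini-Hochberg adjustment and a threshold of 0.05. The slope fit was also run on simulated data with noise drawn separately for each gene. Those data hold no effect of array scale or RNA quality shared by genes, so they cannot show how such effects change the calls. Each line has 1 array, so a p-value reflects how much lines differ, and precision is limited by how many arrays there are. KG-1A was taken to be the questioned KG1 entry of the labels. The members, gene lists and tests were chosen with earlier results of these data known. Named were every member, the 3 most and 2 least correlated genes per member, up to 10 passing genes each way per fit, the 4 genes of smallest p per list (of which a part is printed) and every 8q24 gene; other names followed from their values. Alternatives were 2 other scalings, pseudocount 64, no filter, no trend, RNA quality, medium, probe set and left-out units. Sequences are from RefSeq.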

Additional observations from a re-analysis of the deposited data

Results flagged for a closer look

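Among the 4 lines grown with a cytokine, the MNT level of OCI-AML3, 11.27, stood apart from F-36P at 10.33, OCI-AML5 at 10.20 and OCI-AML2 at 10.17. Its gap to the nearest of them was 0.858 of the group's whole range, above Dixon's limit for 4 samples; about 1 group in 20 exceeds that limit by chance. OCI-AML3 was within the range of the other lines.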

How the results depend on the processing

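The slope on MYC gave 17 calls. It gave 6 after quantile normalization, 2987 after median centring, 6 with no filter and 0 without NOMO-1 and GF-D8. It gave 0 without arrays of high GAPDH ratio, 5 with that ratio as a covariate and 10 without a trend. With only lines in RPMI 1640 and no cytokine named it gave 4, and with each unit left out 0 to 1510. The slope on MYB gave 4 calls. It gave 2 after quantile normalization, 40 after median centring, 2 with pseudocount 64, 10 without NOMO-1 and GF-D8, 2 without arrays of high GAPDH ratio, 21 with all lines as separate units, 0 with the mean of its probe sets and 0 with only RPMI 1640; left-out units gave 1 to 48. The slope on MXD1 gave 0 calls. It gave 1203 after quantile normalization, 4096 after median centring and 1 with the GAPDH ratio as a covariate; left-out units gave 0 to 6. The slope on MYCN gave 190 calls, 90 without arrays of high GAPDH ratio and 5103 with the mean of its probe sets, with 134 to 254 for left-out units. The cytokine comparison gave 0 calls, 4 without arrays of high GAPDH ratio and 0 to 1 with a cytokine line left out. The cause of these changes was not tested.

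Over all alternatives, the 17 genes named with MYC kept their call in 329 of 680 repeats, the 4 with MYB in 111 of 164 and the 23 named with MYCN in 847 of 943, and none changed its sign. Of 1245 repeats of member slopes and differences, 4 passed: MNT on MYC with median centring and without GF-D8, and MXD3 (limma adjusted p = 0.0467) and MNT (limma adjusted p = 0.00319) on MYCN with the mean of its probe sets. Of all 15454 genes, 2987 passed with MYC after median centring, 1510 without GF-D8 and 5103 with that mean for MYCN. Most of the MYCN probe sets in that mean were highest in NOMO-1 or GF-D8, the arrays of high median. In 80 of the 1245 repeats a member's sign changed. Array scaling, RNA quality and the single array per line limit these results. No paired analysis was possible because each line has 1 array and no replicate number.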

Other observations

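Of the 8 genes that rose with MYC, 3 (DLAT, NKAPD1 and DDX10) lie on chromosome 11, 37.5%, beside 890 of 15435 tested genes, 5.77%. DLAT and NKAPD1 lie close together, with promoter windows at chr11:112025158-112025457 and chr11:112074049-112074348, so they are not separate places on the chromosome. DLAT, NKAPD1 and DDX10 were lowest in NOMO-1 and highest in ME-1. This was noticed after the calls were seen and was not tested.

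PLB-985 minus HL-60 was −0.93 for MYB, 0.84 for MYCN and −0.54 for MNT, against a median size of 0.58 over all tested genes, and KG-1A minus KG-1 was −1.09 for MYCN and −0.86 for MNT, against a median size of 0.47. The arrays of HL-60 and PLB-985 also differed in GAPDH ratio, 7.08 against 0.93, and the part of RNA quality was not tested.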
